A study of Homo sapiens with 4 samples.

Results

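The ubiquitin-conjugating (E2) enzyme genes were the 44 of 26830 gene rows whose symbol begins with UBE2 and a further capital letter. RefSeq classes 34 of the 44 as protein-coding; the other 10 are pseudogenes, antisense or divergent noncoding RNAs and 1 readthrough transcript, UBE2F-SCLY. The rows were measured by RNA immunoprecipitation sequencing (RIP-seq) in U2OS, a human osteosarcoma cell line, infected with a lentivirus for 3 x Flag-tagged QKI7, one isoform of QKI, an RNA-binding protein, and kept as GFP-positive cells. Input RNA (2 libraries, no antibody) was compared with RNA recovered with a Flag antibody after ultraviolet cross-linking (Flag-RIP, 2 libraries). Both groups came from the QKI7-expressing cells, so neither shows cells without the tagged protein. The labels number the libraries 1 and 2 without saying that these were separate cultures, so p-values here cover the spread among these libraries alone, and that spread may be technical.

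E2 enzymes take activated ubiquitin, or a ubiquitin-like protein such as SUMO, NEDD8 or ISG15, from an E1 enzyme onto a cysteine and pass it on, usually together with an E3 ligase, to a substrate. The E2 often sets how many modifiers are added and through which lysine a chain grows, and so whether the substrate goes to the proteasome, to DNA repair or to signalling. QKI proteins bind RNA at ACUAAC or ACUAAU, mostly in introns and untranslated regions.

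The values are TPM, a length-normalised share of each library, and hold no read depth. The typical tested gene was 3.37-fold higher in Flag-RIP than in input (1.75 log2 units). Each library was therefore divided by its median ratio before log2(value + 1) was taken; these values are called median-scaled TPM, and "rose" and "fell" below mean relative to the typical gene. QKI itself had deposited TPM of 3.83 and 5.85 in input and 60.7 and 42.0 in Flag-RIP, where reads of the transgene and the endogenous gene cannot be told apart; its median-scaled log2 change was 1.56 (SE 0.17, limma adjusted p = 0.00863), and 0.63 when scaled to spike-ins (limma adjusted p = 0.0837). Of the osteoblast and mesenchymal genes, SPARC, COL1A1 and VIM were at 35.2 TPM or more in every library, RUNX2 at 0.61 to 6.52 and BGLAP at 0.04 to 2.62, while SP7 and ALPL stayed under 0.38 and COL1A2 under 0.35. The leukocyte genes PTPRC and CD3E did not exceed 0.11 TPM and CD68 0.89; of the liver genes, APOA1 did not exceed 0.20 and ALB was listed at 0. The epithelial keratins KRT8 and KRT18 were at 20.0 to 68.5 TPM, beside EPCAM and CDH1 at 0.58 or less.

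The median change of the E2 rows was near that of all tested genes. Of the 32 rows that passed the filter (a mean deposited TPM of at least 1), 6 rose and 5 fell (limma, adjusted p under the 0.05 threshold), which is 18.8% and 15.6%, against 21.5% higher and 23.7% lower over all 10415 tested genes. Their median log2 change was 0.084, against 0.007 over all tested genes. UBE2V1, UBE2Q2L, UBE2H, UBE2G2, UBE2Q2P1 and UBE2N rose, and UBE2S, UBE2C, UBE2M and UBE2T were among those that fell. The 21 rows not past the threshold had changes of -0.34 to 0.31 with SE of 0.08 to 0.19. Of all 10415 tested genes, 5703 were also not past it, and with 2 libraries per group this does not show that a row was unchanged. Changes within 0.25 of 0 were seen in 17 of the 32 rows and in 4117 of all tested genes. Both Flag-RIP values lay above both inputs in 14 rows and below both in 11, shares of 43.8% and 34.4%, against 40.1% and 39.6% of all tested genes. In the TPM as deposited, 31 of the 32 rows were called higher and 0 lower, by limma or at an unadjusted p under 0.05, against 92.3% of all tested genes called higher; the exception was UBE2S, at 0.51 (limma adjusted p = 0.103). The ERCC spike-ins are synthetic RNAs whose step of addition the labels leave out. Scaled to them, 1 row was higher and 20 were lower, against 3.12% and 60.9% of all tested genes. With the rest rescaled in the absence of the top 20 rows by level, 12 were higher and 1 was lower, against 36% and 7.02%. Every direction below is therefore tied to the median-scaled values.

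Few of these calls passed with every library left out in turn. Leaving out any library also lowered the shares of higher and of lower calls over all tested genes. This was strongest for lower calls without Flag-RIP replicate 1, so the losses are not particular to the E2 rows. Among the 11 called rows, 2 (UBE2V1 and UBE2Q2P1) passed with each of the 4 libraries left out in turn. Without Flag-RIP replicate 1 the lower calls did not hold. The median change of the E2 rows was then -0.01, against 0 over all tested genes. Without input replicate 1 these medians were 0.07 and 0. Without Flag-RIP replicate 2 the medians were 0.09 and 0, and the changes of UBE2A and UBE2G1 were 0.43 and 0.37, against 0.21 and 0.25 with all libraries. A mean input TPM under 1 was seen in 11 of the 32 rows, UBE2V1, UBE2H, UBE2N, UBE2Q2L and UBE2Q2P1 among them, so these passed the filter through their Flag-RIP values. UBE2V1 also overlaps a readthrough row and UBE2Q2P1 is a copy of UBE2Q2, so both single values depend on how reads were divided (below). The left-out values given for them are those of the single rows. With a TPM of at least 1 required in every library, 19 rows were tested, of which 1 (UBE2G2) was higher and 5 were lower. Of all 6083 genes tested there, 13.4% were higher and 39.9% lower.

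**Figure D1:**
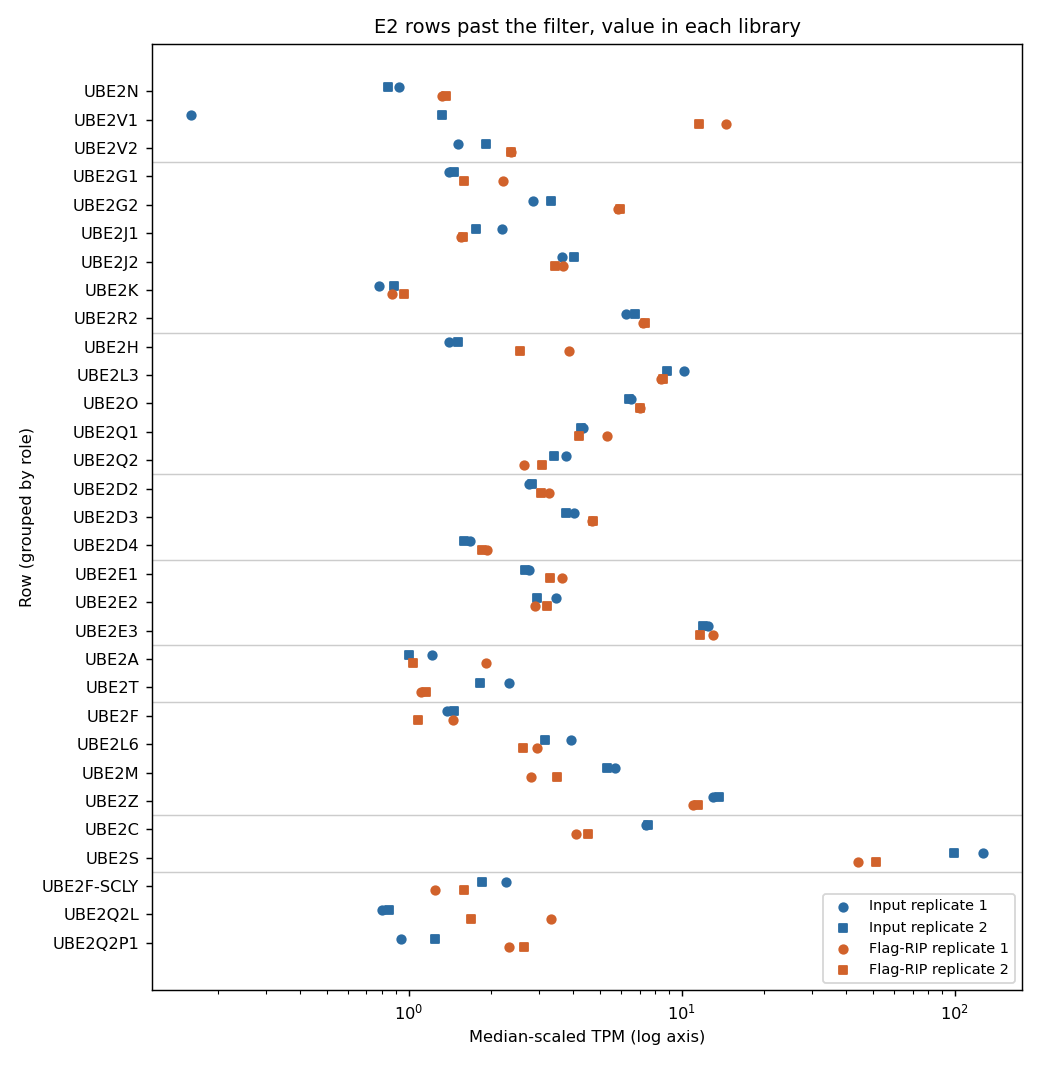
Median-scaled TPM (log axis) of 31 of the 32 E2 rows past the filter, 1 point per library, blue for input and orange for Flag-RIP, circles for replicate 1 and squares for replicate 2; horizontal lines part the roles. UBE2V1 stands apart, from 0.16 and 1.32 in input to 14.5 and 11.5 in Flag-RIP, and UBE2S is the most abundant row in every library. The readthrough row that overlaps UBE2V1 is not shown here.

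**Figure D2:**
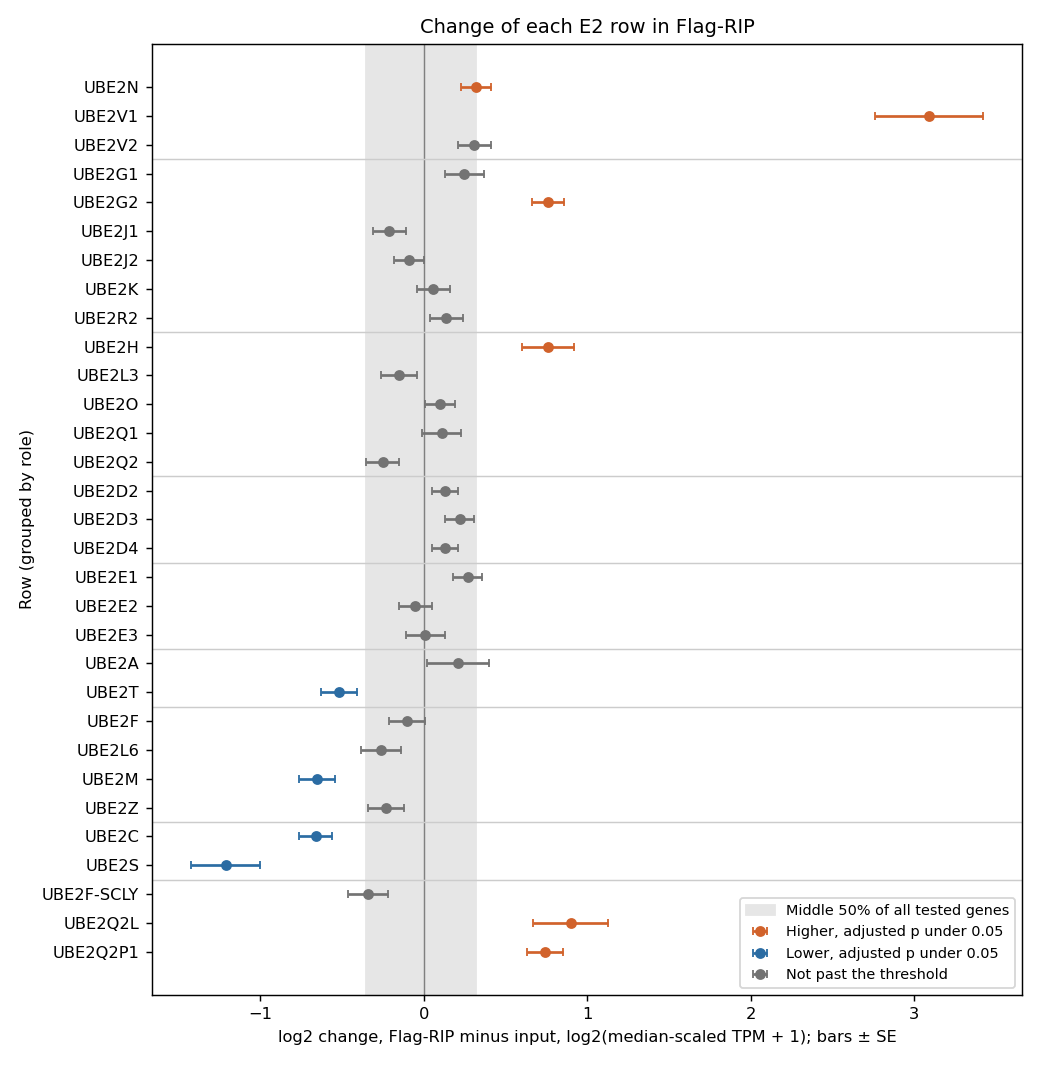
Fitted log2 change of 31 of the 32 tested rows, Flag-RIP minus input, on log2(median-scaled TPM + 1), with bars of ± SE and the middle 50% of all tested genes (-0.35 to 0.32) shaded. UBE2V1 lies at 3.09 (0.80 when summed with its readthrough row) and the other called rows between -1.21 and 0.90. In the TPM as deposited all of the rows shown are above 0, where the median over all tested genes is 1.2.

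Among the enzymes of K63-linked chains, the UBE2V1 row had the largest rise of the E2 rows, 3.09 on the log2 scale, or 0.80 when its overlapping rows were summed, which is below the 0.90 of UBE2Q2L. UBE2N is the E2 that builds these chains, and it works only as a dimer with a catalytically inactive variant, UBE2V1 or UBE2V2; such chains act in NF-kappaB signalling and DNA damage tolerance. UBE2V1 had median-scaled TPM of 0.16 and 1.32 in input and 14.5 and 11.5 in Flag-RIP. Both Flag-RIP libraries lay far above both inputs, which themselves differed widely. The ratio of means was 17.6 and the log2 change 3.09 (SE 0.33, limma adjusted p = 0.00863). UBE2V1 had 2.72 to 3.73 when a library was left out. Its partner UBE2N, at 0.92 and 0.84 in input and 1.32 and 1.37 in Flag-RIP, rose by a much smaller amount, 0.32 (SE 0.09, limma adjusted p = 0.0355). That call was lost when any 1 library was left out (limma adjusted p of 0.0525 to 0.20) and with the replicate block (0.0669), and the change was -0.09 when the libraries were centred after the pseudocount and -0.19 when scaled to spike-ins. UBE2N was at 0.14 after quantile normalization (limma adjusted p = 0.26) and also missed with no filter (limma adjusted p = 0.0714). UBE2V2, at 1.52 and 1.92 in input and 2.36 and 2.37 in Flag-RIP, had 0.31 and missed the threshold (limma adjusted p = 0.056).

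The rise of UBE2V1 came with a fall of the readthrough row that spans the same locus. UBE2V1 lies on chromosome 20 from 50081124 to 50115957 (GRCh38), and the readthrough TMEM189-UBE2V1 (now PEDS1-UBE2V1) runs from 50081124 to 50153723, across UBE2V1 and its neighbour TMEM189 (now PEDS1), which encodes a lipid desaturase. TMEM189-UBE2V1 had median-scaled TPM of 6.87 and 6.37 in input and 0.22 and 0.97 in Flag-RIP, a log2 change of -2.30 (SE 0.23, limma adjusted p = 0.00857). The 2 rows thus exchanged places: UBE2V1 held 2.29% and 17.1% of their summed TPM in the inputs and 98.5% and 92.3% in Flag-RIP. The sum of both rows was 7.03 and 7.69 in input and 14.8 and 12.5 in Flag-RIP. Summed, the locus still rose, by 0.80 (SE 0.13, limma adjusted p = 0.0108), a ratio of means of 1.85 in place of 17.6. TMEM189, whose span overlaps the readthrough but not UBE2V1, went from 2.64 and 2.78 to 7.72 and 5.63, a rise of 1.03 (SE 0.15, limma adjusted p = 0.00996). The values are per gene and come from RSEM, which divides reads among overlapping transcripts, so whether the exchange lies in the RNA or in that division was not tested. The sum and the neighbouring rows were looked at after the value of UBE2V1 had been seen.

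**Figure D3:**
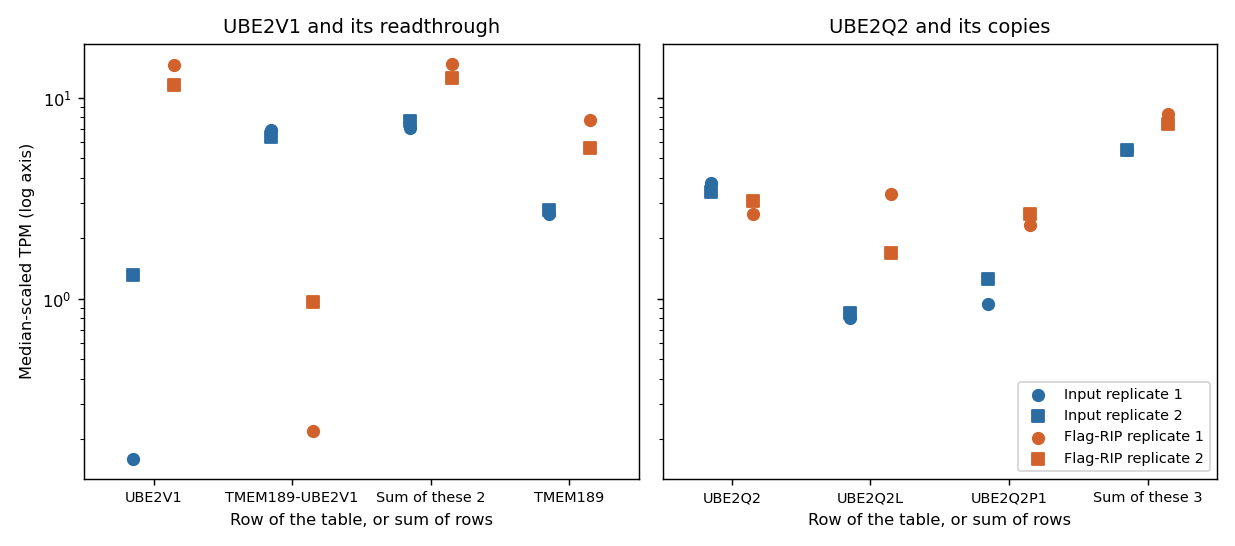
Median-scaled TPM (log axis) by library for UBE2V1, its readthrough TMEM189-UBE2V1, their sum and TMEM189 (left), and for UBE2Q2, the copies UBE2Q2L and UBE2Q2P1 and their sum (right). UBE2V1 and the readthrough move in opposite directions, and their sum goes from 7.03 and 7.69 in input to 14.8 and 12.5 in Flag-RIP.

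Among the enzymes of K48-linked chains and of the endoplasmic reticulum, UBE2G2 rose and the other 5 did not pass. UBE2G2 serves endoplasmic reticulum-associated degradation, the disposal of misfolded secretory proteins, and lies on chromosome 21 from 44768580 to 44801820. It had 2.85 and 3.33 median-scaled TPM in input and 5.84 and 5.96 in Flag-RIP, with close replicates in both groups. The change was 0.76 (SE 0.10, limma adjusted p = 0.00961); without Flag-RIP replicate 1 it was 0.74 and just missed the threshold (limma adjusted p = 0.05), and scaled to spike-ins it was -0.04. UBE2J1 and UBE2J2, membrane-anchored E2 enzymes of the same pathway, had -0.21 and -0.09. UBE2R2, a partner of cullin ligases, had 0.14, UBE2G1 0.25 and UBE2K 0.06, none past the threshold.

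UBE2H, the E2 of the CTLH (GID) ligase, had 1.40 and 1.52 median-scaled TPM in input and 3.86 and 2.56 in Flag-RIP. Flag-RIP replicate 1 was the higher of the 2 recovered libraries, and neither overlapped the inputs. UBE2H rose by 0.76 (SE 0.16, limma adjusted p = 0.0182), on chromosome 7 from 129830732 to 129952960. The call was lost without input replicate 1 (0.78, limma adjusted p = 0.0555) and without Flag-RIP replicate 1 (0.49, limma adjusted p = 0.05). UBE2H also missed the threshold with no filter (limma adjusted p = 0.0504) and on the spike-in scale (0.10, limma adjusted p = 0.713).

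Both E2 enzymes of the anaphase-promoting complex, the ligase that drives exit from mitosis, fell. UBE2S, which lengthens K11-linked chains on its substrates, was the most abundant E2 row in every library, with 127 and 98.8 median-scaled TPM in input and 44.1 and 51.5 in Flag-RIP. It made up 50.6% and 45.2% of the summed TPM of the 44 rows in the inputs and 24.5% and 28.6% in Flag-RIP. The groups did not overlap, input was 2.36-fold higher, and the change was -1.21 (SE 0.21, limma adjusted p = 0.0119). After quantile normalization the change was -0.46 (limma adjusted p = 0.0777, not past the threshold). UBE2C, which starts the chains, had 7.37 and 7.50 in input and 4.11 and 4.55 in Flag-RIP, a change of -0.66 (SE 0.10, limma adjusted p = 0.0101). Without Flag-RIP replicate 1 neither passed, at -1.10 for UBE2S and -0.58 for UBE2C (limma adjusted p = 0.0697 and 0.0526). UBE2C also lost its call when rescaled without the 20 most abundant rows (-0.32, limma adjusted p = 0.315). In the deposited TPM both were higher in Flag-RIP, UBE2S at 0.51 and UBE2C at 0.82 (limma adjusted p = 0.103 and 0.0102). UBE2S lies on chromosome 19 from 55399745 to 55407788 and UBE2C on chromosome 20 from 45812644 to 45816952.

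Among the enzymes for ubiquitin-like modifiers, UBE2M fell. UBE2M, which loads NEDD8 onto cullins, had 5.67 and 5.30 median-scaled TPM in input and 2.81 and 3.48 in Flag-RIP, a change of -0.65 (SE 0.11, limma adjusted p = 0.0125). The groups did not overlap. UBE2M lost its call without Flag-RIP replicate 1 (-0.51, limma adjusted p = 0.0569) and when rescaled without the 20 most abundant rows (-0.34, limma adjusted p = 0.277). As deposited, UBE2M was at 0.75 and called higher. UBE2F, the second E2 for NEDD8, had -0.10, UBE2L6, the E2 for ISG15, -0.26, and UBE2Z, which carries FAT10 as well as ubiquitin, -0.23, none past the threshold. UBE2M lies on chromosome 19 from 58555712 to 58558611.

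Of the DNA repair enzymes, UBE2T fell. UBE2T, the E2 of the Fanconi anaemia pathway, had 2.32 and 1.83 median-scaled TPM in input and 1.11 and 1.16 in Flag-RIP, a change of -0.52 (SE 0.11, limma adjusted p = 0.0171), on chromosome 1 from 202331657 to 202341936. It passed only without input replicate 2, and gave -0.45, -0.46 and -0.50 without input replicate 1, Flag-RIP replicate 1 and Flag-RIP replicate 2 (limma adjusted p of 0.053 to 0.105). Rescaled without the 20 most abundant rows it was -0.38 (limma adjusted p = 0.31), and as deposited 0.54, called higher. UBE2A, one of the paired RAD6 enzymes that act with RAD18 in damage tolerance, had 1.22 and 1.00 in input and 1.92 and 1.04 in Flag-RIP. Its 2 Flag-RIP libraries differed more than the groups did, and the change of 0.21 did not pass (SE 0.19). The other RAD6 gene, UBE2B, was under 0.72 TPM in every library and was not tested.

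The widely used E2 enzymes had small changes, and none was called in the main fit. UBE2D2, UBE2D3 and UBE2D4, which start chains with many RING ligases, had 0.13, 0.22 and 0.13. UBE2E1, UBE2E2 and UBE2E3 had 0.27, -0.05 and 0.01. Both Flag-RIP values lay above both inputs for UBE2D2, UBE2D3, UBE2D4 and UBE2E1, as for 40.1% of all tested genes, while the groups of UBE2E2 overlapped. UBE2D3 was at 0.30 when centred after the pseudocount (limma adjusted p = 0.0449). Scaled to spike-ins it was at -0.58 (limma adjusted p = 0.0466). UBE2E3 was at 12.5 and 12.0 median-scaled TPM in input and 13.0 and 11.7 in Flag-RIP, with overlapping groups. UBE2Z, near the same level, had 13.0 and 13.7 in input and 11.0 and 11.4 in Flag-RIP. UBE2L3, which hands ubiquitin to HECT and RBR ligases, had 10.2 and 8.84 in input and 8.39 and 8.56 in Flag-RIP, a change of -0.15 (SE 0.11). UBE2O, a large enzyme with both E2 and E3 activity, had 0.10, and UBE2Q1 0.11. In input, UBE2S had the highest mean median-scaled TPM of the tested rows, at 113, and UBE2V1 the lowest, at 0.74. In Flag-RIP the highest means were UBE2S at 47.8, UBE2V1 at 13.0, UBE2E3 at 12.4 and UBE2Z at 11.2, where the values of UBE2V1 and UBE2E3 overlapped.

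UBE2Q2 and its 2 measured copies differed from each other. UBE2Q2L (now UBE2Q2P16) and UBE2Q2P1 are transcribed pseudogenes on chromosome 15, from 84172435 to 84182219 and from 84527196 to 84570795, while UBE2Q2 lies on the same chromosome from 75843447 to 75901078. UBE2Q2L had 0.80 and 0.85 median-scaled TPM in input and 3.32 and 1.69 in Flag-RIP, a rise of 0.90 (SE 0.23, limma adjusted p = 0.0276) that was lost without input replicate 1 (0.97, limma adjusted p = 0.0646), after quantile normalization (0.74, limma adjusted p = 0.0603) and with no filter (limma adjusted p = 0.0704). When the libraries were centred after the pseudocount it was 0.57 and also missed (limma adjusted p = 0.0844). UBE2Q2P1 had 0.94 and 1.25 in input and 2.33 and 2.64 in Flag-RIP, a rise of 0.74 (SE 0.11, limma adjusted p = 0.0103). The parent gene had 3.77 and 3.41 in input and 2.65 and 3.08 in Flag-RIP, a change of -0.25 that did not pass (limma adjusted p = 0.0952). Summed, the 3 rows were at 5.51 in both inputs and at 8.30 and 7.41 in Flag-RIP, a rise of 0.44 (SE 0.10, limma adjusted p = 0.0226). UBE2Q2 held 68.3% and 62.0% of that sum in the inputs and 32.0% and 41.6% in Flag-RIP. How RSEM divided reads among the copies is not known, so the single values are uncertain.

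The readthrough UBE2F-SCLY, which RefSeq lists as a noncoding RNA, had 2.27 and 1.86 median-scaled TPM in input and 1.25 and 1.60 in Flag-RIP, a change of -0.34 that did not pass (limma adjusted p = 0.0656). Added to UBE2F, which it overlaps, the sum was 3.65 and 3.33 in input and 2.70 and 2.68 in Flag-RIP, a change of -0.28 (SE 0.09, limma adjusted p = 0.0465). The 12 rows not tested reached at most 1.39 deposited TPM in any library. They were the coding genes UBE2B, UBE2D1, UBE2W, UBE2QL1 and UBE2U, the pseudogenes UBE2DNL, UBE2E4P, UBE2MP1 and UBE2NL, and the noncoding RNAs UBE2E1-AS1, UBE2E2-AS1 and UBE2Q1-AS1. UBE2DNL and UBE2U were listed at 0 in all 4 libraries. UBE2D1 and UBE2W, the latter an enzyme that modifies protein N termini, had 0.40 and 0.43 and 0.29 and 0.23 TPM in input, and 0.85 and 1.01 and 0.49 and 1.04 in Flag-RIP.

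The E2 genes that fell were short in genomic span, with a median of 8.04 kb over 5 genes. UBE2M spanned 2.90 kb, UBE2C 4.31 kb, UBE2S 8.04 kb and UBE2T 10.3 kb. The 4 coding genes that rose spanned 33.2 kb (UBE2G2), 34.8 kb (UBE2V1), 36.3 kb (UBE2N) and 122 kb (UBE2H). Of these, UBE2V1, UBE2N and UBE2H passed the filter through their Flag-RIP values, which favours a rise. With a TPM of at least 1 required in every library, only UBE2G2 rose. The genes that rose were not long among the coding E2 genes. Their median span was 35.5 kb, against 70.9 kb for those not called and 36.3 kb for all 29 tested. Over the 29 tested coding E2 genes, span and change had a Spearman correlation of 0.53, or 0.57 without UBE2V1. Across all 9474 tested protein-coding genes it was 0.33. The input level, which itself enters the change, had correlations with the change of -0.58 over the 29 E2 genes and -0.55 over all 9474. Over these genes they were farther from 0 than those of span. Without UBE2V1 the E2 value was -0.54, beside 0.57 for span, so that order did not hold. Genes are not independent replicates and share the 4 libraries, so no p is given. Among the 2369 coding genes with the shortest spans, up to 11.9 kb, 45.5% were called lower and 12.8% higher, and of the 6 E2 genes there 4 were lower and 0 higher. From 29.4 to 71.7 kb, 17.3% were lower and 22.1% higher, and the 7 E2 genes held 3 of the 4 that rose, with a median of 0.31. Among those with the longest spans, 71.7 kb or more, 8.02% were lower and 26.4% higher, and of the 11 E2 genes 0 were lower and 1 was higher, with a median of 0.13, so the E2 medians did not rise steadily with span. Span goes with intron length, transcript length and expression level, whose separate parts were not tested. The RefSeq start windows held 44 starts of 31 of the 44 rows. In the first 50 transcribed bases, read on the transcript strand, ACTAAC or ACTAAT was in 0 of the 44 windows and in 0.772% of the 35116 windows of all genes. At so low a share, 0 is a likely count in 44 windows, so no difference is shown. The rest of each transcript was not searched.

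**Figure D4:**
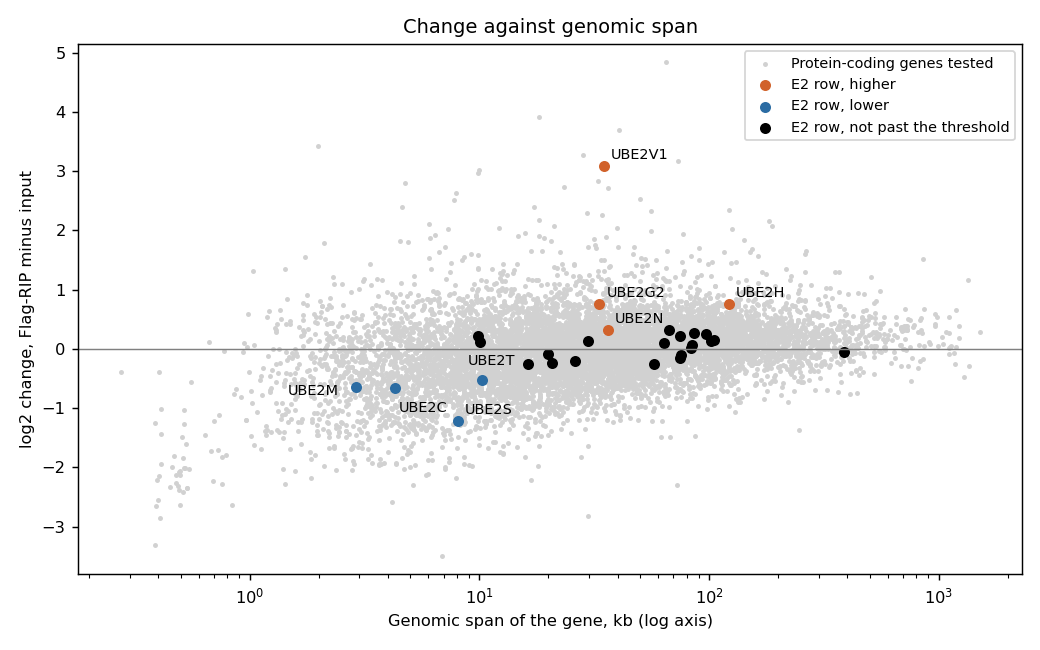
Log2 change (Flag-RIP minus input, median-scaled) against genomic span in kb (log axis) for the tested protein-coding genes (grey) and 28 of the 29 coding E2 genes (coloured or black, called ones named). The lower genes shown span 2.90 to 10.3 kb and the 4 that rose 33.2 to 122 kb, while those not called have a median of 70.9 kb. In the TPM as deposited the lower genes shown are also above 0, where the median over all tested genes is 1.2. Of the 4 that rose, UBE2V1, UBE2N and UBE2H passed the filter through their Flag-RIP values.

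The enzymes that act before and after the E2 step were described on the same fit, where 21.5% of all tested genes were higher and 23.7% lower. Of 8 tested E1 enzymes, 2 fell (25%, near that share) and 0 rose: UBA1, the main ubiquitin E1, at -0.62, and SAE1, a subunit of the SUMO E1, at -0.42. Of 6 tested E2 enzymes whose symbols do not begin with UBE2, 2 fell and 1 rose, with TSG101, an inactive variant in endosomal sorting, at -0.67 and CDC34, the paralog of UBE2R2, at -0.56. Of 14 tested genes for ubiquitin and ubiquitin-like proteins, 8 fell (57.1%) and 1 rose (7.14%), with a median of -0.84. FAU, which encodes a ubiquitin-like protein fused to a ribosomal protein, fell by 1.68. The proteasome subunits had 27 lower (84.4%) and 1 higher of 32, with a median of -0.89, led by PSMD8 at -1.98 and PSMB6 at -1.67.

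Of the 14 tested genes of the anaphase-promoting complex and its activators, 6 fell (42.9%) and 1 rose (7.14%), against 23.7% and 21.5% of all tested genes, with a median of -0.27. ANAPC11, its RING subunit, was at -1.32 and CDC20, an activator, at -1.25, beside the falls of UBE2S and UBE2C. The other lists had shares of higher genes near or below that of all tested genes, and lower shares below it. The cullin-RING core had 3 higher and 3 lower of 17 (17.6% each), led by CAND1, the exchange factor of cullin ligases, at 0.99 and DCUN1D2, which helps to attach NEDD8 to cullins, at 0.86. The HECT ligases had 3 higher (15%) and 0 lower of 20, led by AREL1 at 0.46 and HERC1 at 0.30. The RING ligases of DNA damage and chromatin had 3 higher (20.0%) and 2 lower (13.3%) of 15, with RNF168, which acts with UBE2N at DNA breaks, at 0.63 and RNF111 at 0.53. Among ligases and partners of endoplasmic reticulum-associated degradation, 1 rose and 1 fell of 10 (10.0% each), with MARCH6 (now MARCHF6), a membrane-bound ligase, at 0.54. SUMO and ISG15 ligases and proteases had 2 higher (22.2%) and 0 lower of 9, SENP5 at 0.47 and SENP2 at 0.37. Deubiquitinases had 8 higher (23.5%) and 7 lower (20.6%) of 34, with USP5 at -0.86 and USP39, an inactive member that acts in splicing, at -0.77.

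Many of the pathway calls did not pass when a library was left out. The shares of higher and of lower calls over all tested genes also fell with any library left out, so these losses are not particular to the lists. Without Flag-RIP replicate 1, 16 of the 21 genes named here from outside the family (QKI included) lost their call (limma adjusted p of 0.0518 to 0.113), and TSG101, CAND1, DCUN1D2, USP39 and QKI kept theirs with each library left out. The sizes moved less than the calls without Flag-RIP replicate 1: ANAPC11 was at -1.35, CDC20 at -1.26, FAU at -1.55, MARCH6 at 0.57 and PSMD8 at -1.62, while SENP2 went from 0.37 to 0.25. In that setting the lower calls of the ubiquitin genes and the anaphase-promoting complex did not hold, nor did most of those of the proteasome. The medians there were -0.75 for the proteasome, -0.73 for the ubiquitin genes and -0.21 for the anaphase-promoting complex, against 0 over all tested genes. Without input replicate 1 the calls of the HECT, DNA damage, endoplasmic reticulum and SUMO lists and of the E1 enzymes did not hold. The medians there were -0.27 for the anaphase-promoting complex, -0.79 for the proteasome and 0.06 for the cullin core, against 0 over all tested genes. The calls of the HECT ligases also did not hold without input replicate 2. With the replicate block 17.6% of all tested genes were higher and 17% lower. The anaphase-promoting complex had 3 lower and 1 higher of 14, and the deubiquitinases 4 higher and 3 lower of 34. The cullin core had 2 higher and 1 lower of 17. The HECT ligases had 1 higher of 20, the SUMO list 1 higher of 9 and the E1 enzymes 0 of 8. The block ended the calls of UBA1 (limma adjusted p = 0.0629), SAE1 (0.0815), HERC1 (0.0811) and SENP2 (0.0591). Rescaled without the 20 most abundant rows, UBA1, SAE1, TSG101, CDC34, USP5 and USP39 lost their calls. UBA1, SAE1 and CDC34 also lost theirs after quantile normalization (-0.10, -0.20 and -0.38) and when centred after the pseudocount (-0.25, -0.15 and -0.31). As deposited, 19 of the 32 proteasome genes were called higher and 0 lower, against 92.3% and 0.317% of all tested genes. Their median was then 0.69, against 1.2 over all tested genes.

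**Figure D5:**
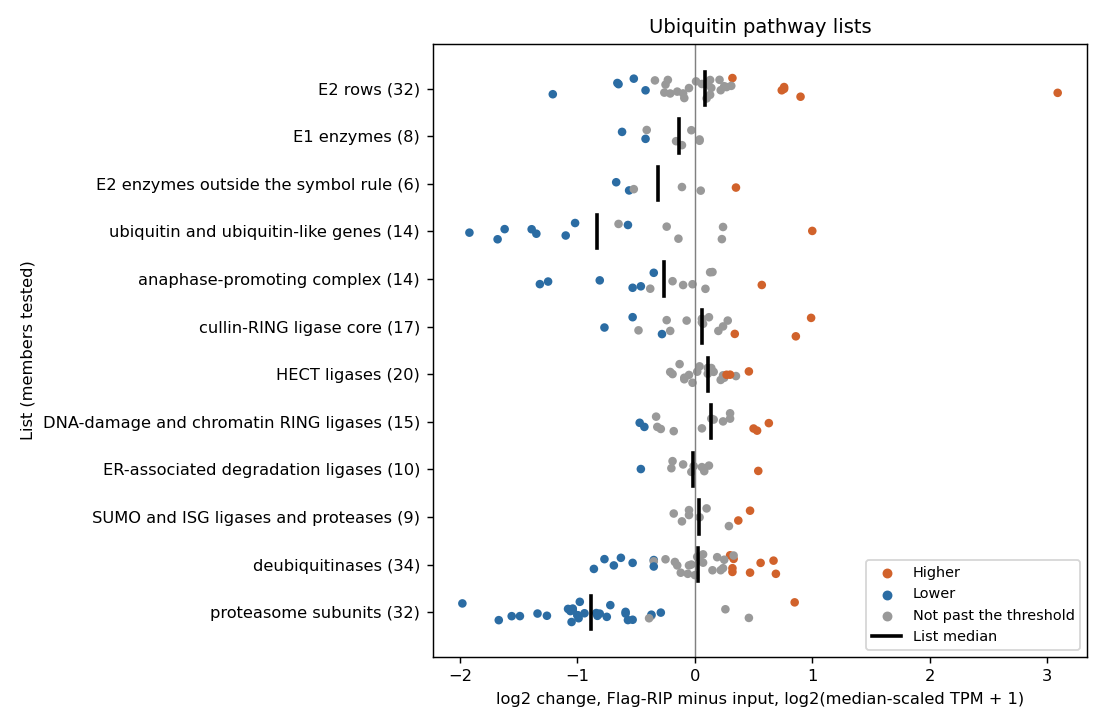
Log2 change (Flag-RIP minus input, median-scaled) of each tested member of the E2 rows and of 11 further lists of the ubiquitin pathway, with black bars at the list medians; orange points were called higher and blue points lower. Ubiquitin genes (median -0.84) and proteasome subunits (-0.89) lie lowest. In the TPM as deposited the medians of both of these lists are 0.69, against 1.2 over all tested genes. UBE2V1 at 3.09 (0.80 when summed with its readthrough row) is the highest point.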

How the data were processed

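The authors deposited 1 table of TPM, with a column for each library. The tools named are STAR and RSEM (1.2.31) and the build is GRCh38, per the submitters' processing notes. Which annotation, strand setting or filters applied is not given in the sources read. Without a known strand setting, reads of antisense partners cannot be told apart. TPM keep no depth, so no counting interval is given. Each of the 4 libraries was divided by its median ratio to the gene-wise geometric mean, over genes above 0 in all libraries; scaling before the pseudocount of 1 keeps low genes that follow the median at 0. Genes with a mean deposited TPM of at least 1 were tested (10415; the 92 spike-in rows left out) with limma 3.58.1 in R 4.3.3 (trend, two-sided, Benjamini-Hochberg over all tested genes, threshold 0.05; 2 residual and 3.23 prior degrees of freedom). Changes on log2(value + 1) understate those of low genes.

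All adjusted p-values are from limma fits. The fitting code was also run on simulated data in which few genes changed, evenly in both directions. That run does not bear on the choice of scaling. The members, lists and tests were chosen with earlier results of these data known. Every tested member was to be named, and from each list the 2 tested genes with the largest change past the threshold; a few of these stayed in every fit and count and are not reported here singly. Of the member symbols, 42 matched RefSeq (GRCh38.p14) directly and 2 as a synonym. Alternatives covered scaling, pseudocount, filter, variance model, left-out libraries and the replicate block; summing rows of shared loci was added after seeing the data.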

Additional observations from a re-analysis of the deposited data

How the results depend on the processing

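The scaling set the split between higher and lower. Over all tested genes, 2240 were higher and 2472 lower on the median-scaled values, 9608 and 33 as deposited, 3748 and 730 when rescaled in the absence of the top 20 rows, and 325 and 6339 on the spike-in scale, where calls in each direction were 92.3% and 0.317%, 36.0% and 7.02%, and 3.12% and 60.9% of those tested. In the same order of alternatives the E2 rows had 31 higher and 0 lower with a median of 1.29, 12 and 1 with 0.55, and 1 and 20 with -0.705; centred after the pseudocount the median was -0.026. With a mean TPM of at least 5, 790 genes were higher and 1603 lower (19.8% and 40.1%; E2 rows 2 and 3). With a TPM of at least 1 in every library, 815 genes were higher and 2429 lower (13.4% and 39.9%). There the E2 rows had 1 higher and 5 lower, with a median of -0.089, against -0.21 over all genes tested there. With no filter 3 E2 rows were higher and 5 lower, against 9.78% and 7.6% of all tested genes. Leaving out each library in turn gave 907 to 2143 genes higher and 222 to 1946 lower, 3 to 7 E2 rows higher and 0 to 5 lower, and E2 medians of -0.01 to 0.10. As deposited, the change was above 0 for UBE2C (0.82), UBE2E2 (1.26), UBE2F (0.89), UBE2F-SCLY (0.76), UBE2J1 (0.90), UBE2J2 (1.27), UBE2L3 (1.42), UBE2L6 (1.06), UBE2M (0.75), UBE2Q2 (1.08), UBE2S (0.51), UBE2T (0.54), UBE2Z (1.38), UBA1 (1.07), SAE1 (1.17), TSG101 (0.61), CDC34 (1.01), FAU (0.05), ANAPC11 (0.30), CDC20 (0.44), USP5 (0.79) and USP39 (0.62). Scaled to spike-ins it was below 0 for UBE2D2 (-0.60), UBE2D3 (-0.58), UBE2E3 (-0.90), UBE2G2 (-0.04), UBE2N (-0.19), UBE2O (-0.76), UBE2Q1 (-0.69), UBE2R2 (-0.72), AREL1 (-0.37), HERC1 (-0.49), RNF168 (-0.21), RNF111 (-0.18), MARCH6 (-0.17), SENP5 (-0.23) and SENP2 (-0.40), and also for UBE2A (-0.31), UBE2D4 (-0.49), UBE2E1 (-0.47), UBE2G1 (-0.35), UBE2K (-0.40) and UBE2V2 (-0.35), which passed in neither setting. UBE2N was at -0.09 when centred after the pseudocount, and the UBE2Q2 row at 0.44 when its copies were added, by construction. Beyond what these scalings do by construction, the cause was not tested. With the shared loci summed, 5 E2 rows were higher and 6 lower, with a median of 0.10. Pseudocounts of 0.1 and 5, no variance trend and robust variance changed no E2 call.

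The numbers 1 and 2 are shared by both groups, but the deviations of same-numbered libraries had a correlation of -0.098 and there are only 2 pairs, so the numbers are not shown to pair the libraries. With the replicate block, 1833 genes were higher and 1769 lower, and the E2 rows had 5 higher and 4 lower with a median of 0.084; UBE2N lost its call. Signal depth is unknown for TPM, and 2 libraries per group limit the precision.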
